A study of Homo sapiens with 4 samples.

Results

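The homeodomain-interacting protein kinases HIPK1, HIPK2 and HIPK3 were followed through a list of regions enriched in RNA immunoprecipitated with YTHDF2. A peak of an exon or intron was given to the gene named in its annotation, and any other peak to the gene whose span held its summit. By this rule the 3 genes held 14 of the 14858 peaks, with 11 in HIPK2, 2 in HIPK3 and 1 in HIPK1. The genes were chosen by the number and class of their peaks in this same list, so the numbers, folds and classes below describe them and carry no test.

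The material was HCCLM3, an established human hepatocellular carcinoma cell line, labelled as wild type. RNA bound by the m6A reader YTHDF2 was pulled down and sequenced beside the input RNA (RIP-seq), in 2 RIP and 2 input libraries. The labels of the 4 libraries name no control pulldown, knockdown or treatment, so enrichment over input is all that a peak can show. The files gave a single peak list for the libraries together, and with it neither values per library nor replicate spread nor total depth. Of 7 liver and epithelial marker genes, FN1, KRT8 and KRT18 had a peak at or under a q of 0.01, APOB had 1 above it, and ALB, APOA1 and AFP had none. A gene without a peak has no level in such a list.

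HIPKs are serine/threonine kinases of the DYRK branch of the CMGC group and sit largely in nuclear bodies and the nucleoplasm. HIPK2, the best studied, promotes cell death after severe DNA damage and is kept low by ubiquitin ligases such as SIAH1 and MDM2. HIPK1 and HIPK3 share its kinase domain and act on transcription factors, corepressors and death receptor adaptors. YTHDF2 binds N6-methyladenosine, a modification found mostly in long internal exons, around stop codons and in 3' UTRs, and brings in CCR4-NOT, which shortens the poly(A) tail.

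HIPK2 carried its peaks chiefly in the 3' UTR, HIPK3 had 1 peak in the 3' UTR and 1 in an exon, and HIPK1 had 1 exon peak. Of the 14 peaks, 8 lay in the 3' UTR (57.1%), 3 in exons and 3 in introns. None was of the promoter class. None of 6 RefSeq promoter windows of HIPK1 and HIPK3 overlapped a peak, and such windows for HIPK2 were not analysed here. A window reaches only a short way past its start site and holds little of the RNA that begins there. The absence of overlap therefore says little about enrichment.

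A peak is said to pass with a q, as the authors' caller gave it, of 0.01 or less. Of the HIPK peaks 8 of 14 passed, where 37.3% of all peaks in the list did. By class, 6 of 8 3' UTR peaks passed against 50.9% of all 3' UTR peaks, and 2 of 3 exon peaks against 45.5% of all exon peaks. No intron peak of the 3 passed, against 7.26% of all intron peaks. With so few members these shares cannot be set apart from the list's own.

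The enrichment at HIPK RNAs was modest and rested on many fragments. The fold enrichment, which the authors' caller computed at the summit as RIP over background, ran from 1.44 to 1.93 over the 8 passing peaks. The median fold of the whole list was 2.41, so every passing HIPK peak lay below it. That median is not matched for background or fragments. The RIP fragments stacked at a summit were solved from its fold and p-value. They numbered 52 to 220 at the 11 exon and 3' UTR peaks, against a median of 12 over the list. Intervals on folds below are exact 95% Poisson intervals of the RIP fragments over a fixed background. They cover the counting error of the RIP fragments only, not that of the input, and do not allow for each summit being the highest point of its region.

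**Figure D1:**
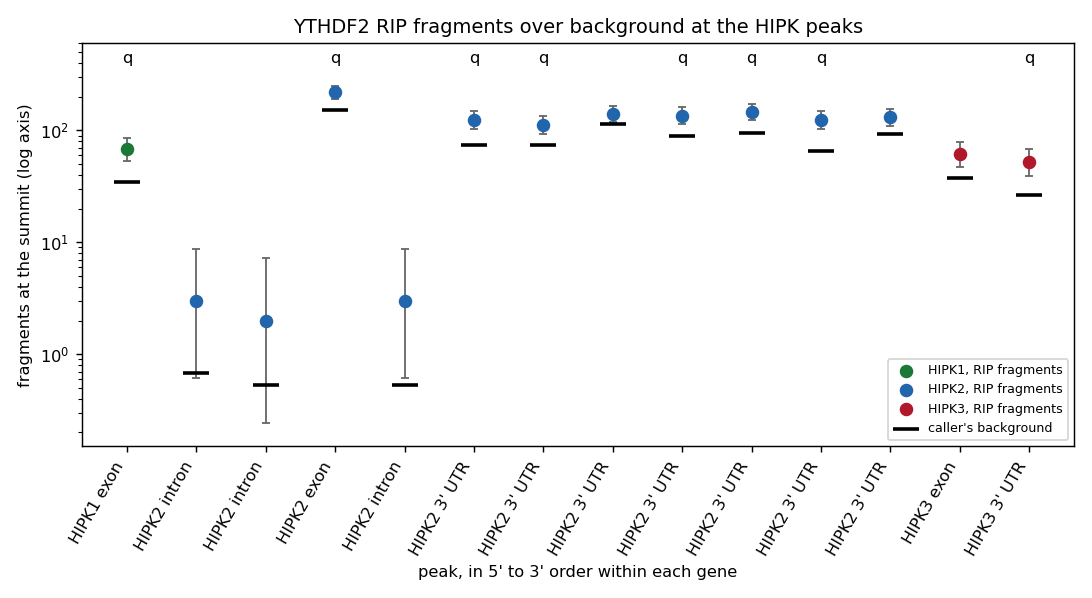
RIP fragments at the summit of each HIPK peak (points, with exact 95% Poisson intervals) and the caller's background (black bars), on a log axis, in 5' to 3' order within each gene. The letter q above a point marks a passing peak. The 3 intron peaks rest on 2 or 3 fragments, and the 11 exon and 3' UTR peaks on 52 to 220.

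HIPK2 lies on chromosome 7 (139561570 to 139777998, hg38) and is read from the minus strand, so its 3' end has the lowest coordinates. Its 7 peaks of the 3' UTR class stretched over 10353 bp, from 139562238 to 139572590, and together covered 3984 bp (38.5%) of it. Neighbouring peaks were 201 to 2493 bp apart, and neighbouring summits 804 to 3108 bp apart. They are parts of 1 RNA and not separate replicates of its enrichment.

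The highest fold in the HIPK2 3' UTR was that of the peak at chr7:139563832-139564455, with a summit 2.47 kb from the gene's 3' end. This peak had 125 RIP fragments over a background of 65.9. The fold was 1.88 (1.57 to 2.24) and the −log10 q 7.20, the highest of all HIPK peaks and 2223rd in the list. The next fold upwards along the RNA was 1.54 (1.30 to 1.81) at chr7:139566949-139567287, on 146 fragments over 94.5. It was followed by 1.52 (1.28 to 1.80) at chr7:139567801-139568126, on 136 fragments over 89.1. These 3 summits passed, and their intervals overlapped.

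Toward the coding sequence, the peak at chr7:139570152-139570725 had a fold of 1.52 (1.25 to 1.82) on 112 fragments and a −log10 q of 2.16, just past the threshold. The most upstream 3' UTR peak, at chr7:139572089-139572590 and 10.9 kb from the gene's end, had a fold of 1.65 (1.37 to 1.96) on 124 fragments. Both passed, so passing peaks reached from 2.47 to 10.9 kb from the gene's 3' end. Both intervals overlapped that of the highest fold, so no order by position is resolved among the passing 3' UTR peaks.

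The other two 3' UTR peaks of HIPK2 did not pass. The one nearest to the 3' end, chr7:139562238-139563263, was 1026 bp wide and had a fold of 1.41 (1.18 to 1.67) on 132 fragments, with a −log10 q of 1.51. The other, chr7:139568328-139568920, had the lowest fold of the family, 1.24 (1.05 to 1.46), with 141 fragments over a background of 114 and a −log10 q of 0. Neither was short of fragments: both had more than the strongest peak, over a higher background.

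**Figure D2:**
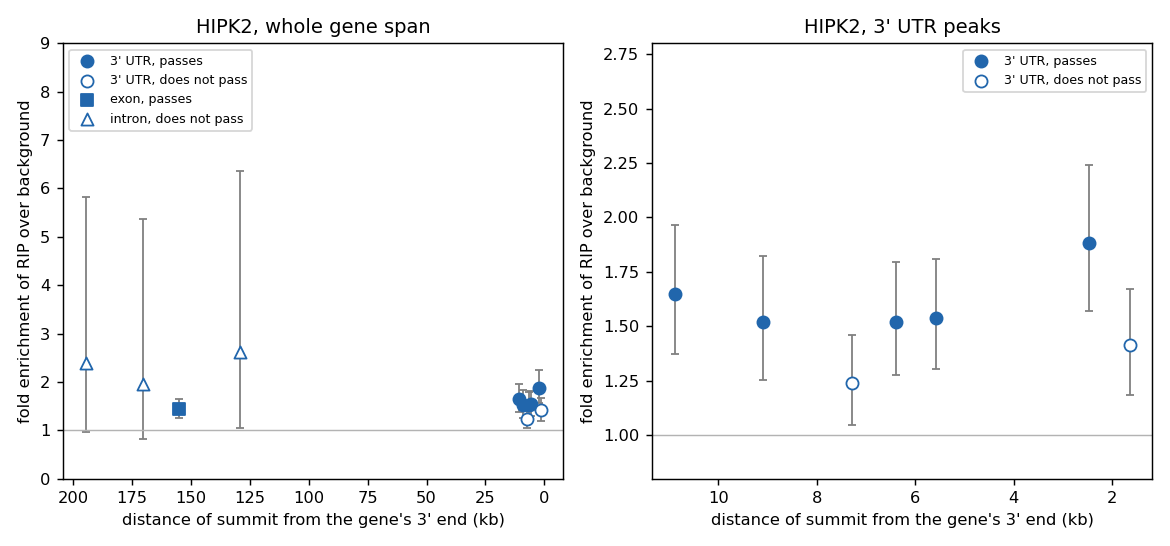
Fold enrichment of the 11 HIPK2 peaks (vertical axis, with exact 95% Poisson intervals of the RIP fragments) against the distance of each summit from the gene's 3' end in kb, drawn 5' to 3' from left to right. The left panel shows the whole gene and the right panel the 7 peaks of the 3' UTR, where filled points pass and fold runs from 1.24 to 1.88.

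The input fragments behind these folds could be read as well. The caller's background was a whole multiple of 0.68, the weight of 1 scaled input fragment, at all 7 of these summits within 0.01 fragment. The same held for 79.1% of the 6521 peaks with 20 or more RIP fragments. The inputs at the 7 summits, from the 3' end upwards, were 137, 97, 139, 131, 167, 108 and 110 fragments. The strongest peak was thus the summit with the fewest input fragments, and the weakest the one with the most. RIP fragments varied less, from 112 to 146.

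Summed over the 7 summits, 916 RIP fragments stood against 889 input fragments. After scaling of the input the ratio was 1.52, with an exact interval of 1.38 to 1.66. The interval counts the sampling of RIP and input fragments, not the spread between libraries. The 7 summits were listed because RIP exceeded background there, so a summed ratio above 1 follows from that choice. Taken singly, the ratio was 1.90 (1.44 to 2.50) at the strongest summit and 1.24 (0.985 to 1.56) at the weakest. Those were the extremes of the 7, and the weakest summit's interval included 1. The difference between summits was not tested. The summed ratio describes the 7 summits, each the highest point of its peak, and not the whole 3' UTR.

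In the number of 3' UTR peaks HIPK2 stood at the head of the list. Of 3480 genes with such a peak, 2985 (85.8%) had 1, and HIPK2 was the only one with 7. RAB3B, a small GTPase of secretory vesicles, followed with 6, and the ETS factor ELK4 and the histone deacetylase HDAC9 had 5 each. The closest pair of the 7 HIPK2 peaks lay 201 bp apart. Joining peaks under 350 bp apart took HIPK2 from 11 peaks of all classes to 10, by merging that pair. The lead over RAB3B as listed thus rests on that pair being counted separately. The peaks of RAB3B were not joined in the same way, so the order after joining was not tested. Counting only peaks that passed, HIPK2 and RAB3B had 5 each. Over peaks of all classes, 13 genes, HIPK2 among them, had 6 or more passing peaks. With or without passing, 19 genes including HIPK2 had at least its 11 peaks. UTR lengths, which bear on how many peaks a gene can hold, were not analysed here.

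**Figure D3:**
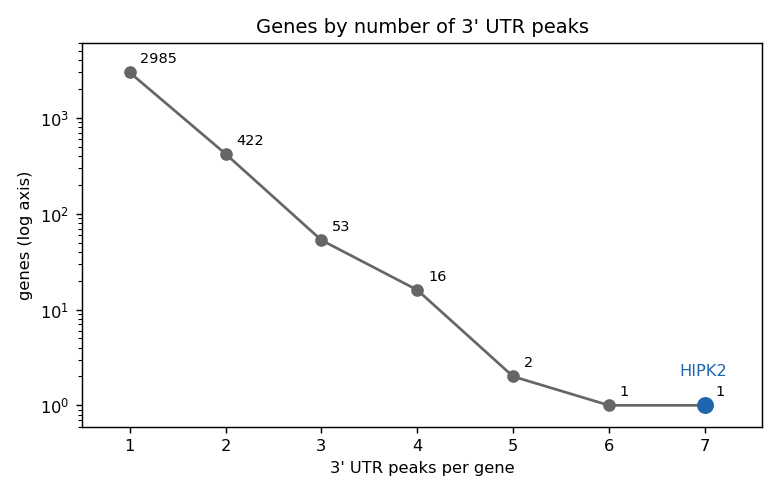
Number of genes (vertical log axis) by the number of 3' UTR peaks they hold (horizontal axis). Peaks are counted as listed, without joining close ones. Of 3480 genes 2985 have 1 such peak, and HIPK2 is the single gene with 7.

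The folds of the HIPK2 3' UTR peaks lay low in the list, and their median was below that of peaks of like background. Their median over the 7 peaks was 1.52, against 2.13 over all 3' UTR peaks. The background of these peaks was also higher, with a median of 89.1 against 19.7. Over the 442 3' UTR peaks whose background lay in the range of the 7, the median fold was 1.62, the quartiles were 1.41 and 1.85, and 67.2% passed. The median of the HIPK2 peaks lay between the lower quartile and the median of these 442, which include the 7. Of the 7 peaks 5 passed.

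**Figure D4:**
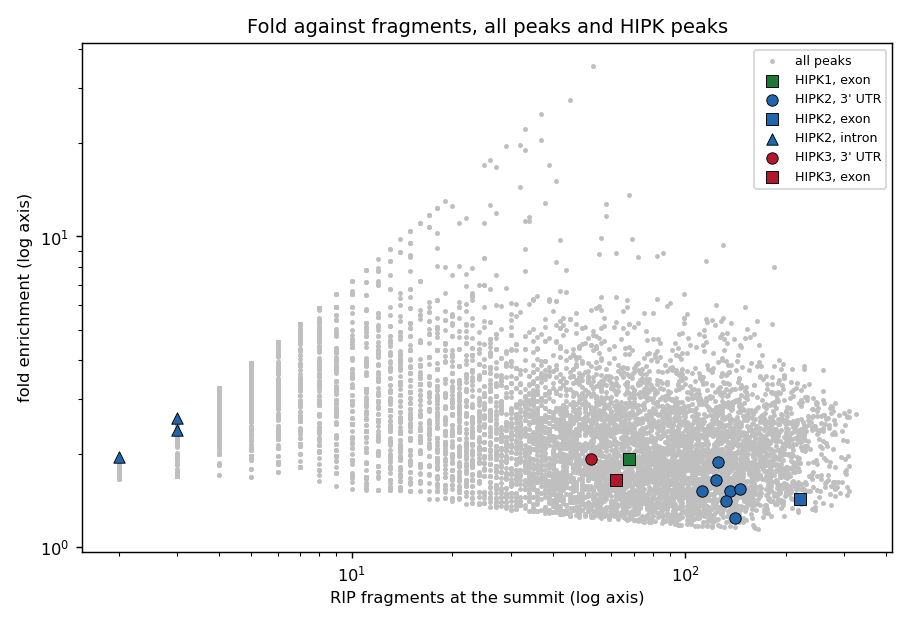
Fold enrichment against RIP fragments at the summit for all 14858 peaks (grey) and the 14 HIPK peaks (colour by gene, shape by feature), both axes logarithmic. The HIPK exon and 3' UTR peaks sit at 52 to 220 fragments with folds of 1.24 to 1.93, and the 3 intron peaks at 2 or 3 fragments.

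All 3 HIPK genes had a peak in exon 2 of the annotated transcript, and they had no other peak of the exon class, which leaves out peaks annotated to a UTR. In this family the second exon is long and coding and holds the start of the protein. The exon 2 peaks of HIPK1 and HIPK2 passed, and that of HIPK3 did not. Over the list, 263 of 3086 exon peaks (8.52%) lay in an exon 2, and 119 of 2330 (5.11%) in transcripts of 10 or more exons. These shares are not matched for exon length, which bears on where peaks fall and was not analysed here. With 3 genes that share their structure by descent, this is 1 pattern seen in paralogs and not 3 independent cases.

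In HIPK2, the exon 2 peak of NM_001113239 (exon 2 of 15) at chr7:139715689-139716773 was the widest HIPK peak, at 1085 bp. It held 220 RIP fragments over a background of 153, the most fragments of any HIPK peak and more than 98.8% of the list. Its fold was 1.44 (1.25 to 1.64), with a −log10 q of 3.86. With 225 input fragments, the scaled ratio was 1.44 (1.19 to 1.74).

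In HIPK1 (chromosome 1, 113929324 to 113977869), the only peak lay at chr1:113940989-113941696, in exon 2 of 15 of NM_152696. It had 68 fragments over a background of 34.9, a fold of 1.92 (1.50 to 2.43) and a −log10 q of 3.67. The background there was no whole multiple of an input fragment, so no input count is given. RefSeq lists start sites of HIPK1 at 113929324, 113929844 and 113951145. The peak lay downstream of the first pair and 9449 bp upstream of the third, which belongs to NM_198269. The enriched segment is thus outside the transcript that begins at the third start. No 3' UTR peak was listed for HIPK1.

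In HIPK3 (chromosome 11, 33256672 to 33357023), the exon peak at chr11:33287388-33287736 lay in exon 2 of 16 of NM_001278163. It had 62 RIP fragments against 55 input fragments, a fold of 1.64 (1.26 to 2.10) and a −log10 q of 1.39, and did not pass. With the input's sampling counted too, the scaled ratio was 1.66 (1.13 to 2.43). The second exon of HIPK3 also gives rise to circHIPK3, an abundant circular RNA. The list holds no junction reads, so linear and circular RNA cannot be told apart at this peak and no value is given for the circle.

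The 3' UTR peak of HIPK3, at chr11:33353318-33354016 with its summit 3.63 kb from the gene's end, passed. It had 52 RIP fragments against 39 input fragments, a fold of 1.93 (1.45 to 2.51) and a −log10 q of 2.57. The scaled ratio, which counts the input's sampling too, was 1.96 (1.27 to 3.05). Both HIPK3 summits had fewer input fragments (39 and 55) than any exon or 3' UTR summit of HIPK2 (97 to 225).

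Ordered by their best passing peak, HIPK3 (1.93), HIPK1 (1.92) and HIPK2 (1.88) were nearly level. Each interval contained the folds of the other two, so the order is not resolved. Their numbers of passing peaks were 1, 1 and 6. HIPK4, a shorter relative on chromosome 19 (40379271 to 40390181), had no peak.

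The intron peaks of HIPK2 had the highest folds of the family and the least behind them. The peak at chr7:139690694-139691008 in intron 2 had a fold of 2.61 (1.06 to 6.37) on 3 fragments. In intron 1, chr7:139755968-139756282 had 2.38 (0.964 to 5.81) on 3 fragments, and chr7:139731639-139731953 had 1.96 (0.81 to 5.36) on 2. All were 315 bp wide, the minimum among HIPK peaks, and had a −log10 q of 0.166 or 0. A ranking of HIPK2 by its highest fold would rest on these, while among peaks that passed its highest fold was 1.88.

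The gene deposited beside each peak is that of the nearest transcription start site, and for 8 of the 14 peaks it was another gene. All 7 of the HIPK2 3' UTR peaks carried the name of CLEC2L, a C-type lectin gene whose start lay 38553 to 48404 bp away. The 3' UTR peak of HIPK3 carried that of KIAA1549L, whose start lay 22092 bp from it. Each of these 8 summits lay inside 1 gene of the RefSeq table, the HIPK gene. By the deposited names the family had 6 peaks, none of them in a 3' UTR, of which 2 passed.

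The genes most like each HIPK gene were sought among 3647 protein-coding genes with a passing peak. Likeness was the distance over 4 values, the numbers of passing 3' UTR, exon and other peaks and their median log2 fold. The nearest to HIPK2 (5, 1 and 0 peaks, median log2 fold 0.61) were UHMK1, a kinase with an RNA-recognition-like domain (4, 1 and 0, 0.87, distance 1.03), and RAB3B (5, 0 and 0, 0.91, distance 1.04). For HIPK1 these were ENTR1 and PLK2, both with 1 exon peak and a median log2 fold of 0.94. For HIPK3 they were AIMP1 and DLD, with 1 3' UTR peak and 0.95. A profile of 1 peak is shared by many genes, so only the neighbours of HIPK2 say much about shape, and both had higher folds.

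Among the closest relatives, the DYRK and CLK kinases, 5 of 10 had a peak and 4 a passing one, where 50.2% of all 7948 genes with a peak had a passing one. The list was written with earlier results of these data known. DYRK1A, a kinase of splicing and neural development, had 3.52-fold in exon 4 over 48 fragments. CLK1, which phosphorylates SR splicing factors, had 3.11-fold over 19 fragments, and CLK2 had 3.87-fold over 9 fragments, on an alternative contig. DYRK2, a kinase of the DNA damage response, had a peak in the 3' UTR and a peak in exon 2, as HIPK2 and HIPK3 did. Its 3' UTR peak had 1.82-fold over 90 fragments, and its exon 2 peak, in the last of 2 exons, had 1.41-fold over 130 fragments and did not pass. DYRK3 had 3' UTR peaks of 10 and 13 fragments, neither of which passed. The median best passing fold was 3.31 in this list and 2.69 over all genes with a passing peak.

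Of 44 genes, made up of HIPK4 and genes known as regulators, substrates or partners of HIPKs, 30 had a peak and 22 a passing one, or 73.3% of those with a peak, against 50.2% of all genes with a peak. Their median best passing fold was 2.55, against 2.69 over all genes with a passing peak. The shares of genes are not matched for peaks per gene, and a gene with more peaks has more chances of a passing one. The 30 partner genes held 65 peaks, and the 7948 genes with a peak held 13640. Of the 65 peaks 35 passed, where 37.3% of all peaks did, without matching for class. Of their 25 peaks in a 3' UTR 13 passed, where 50.9% of all 3' UTR peaks did. This list, too, was written with earlier results known, and only its members with a peak can be counted.

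Among these genes the highest fold was that of FADD, the death receptor adaptor that HIPK3 phosphorylates. Its 3' UTR peak had 5.45-fold (chr11:70207183-70207555) on 99 fragments over a background of 17.3. That background was lower than the background of any HIPK exon or 3' UTR peak.

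Among regulators of HIPK2 and of DNA damage signalling, MDM2, a ubiquitin ligase for HIPK2, had 3.94-fold in an exon on 19 fragments, and the DNA damage kinase ATM had 3.86-fold on 16 fragments in a promoter-class peak. The best peaks of the checkpoint kinases ATR (2.61-fold on 3 fragments) and CHEK1 (1.95-fold on 42 fragments) did not pass, and MDM4, a relative of MDM2, had none. SIAH1, the ligase that degrades HIPK2, had 3 peaks of which none passed, and SIAH2 and WSB1 had none. By number, SMAD3, a transcription factor of TGF-beta signalling, led with 4 passing peaks of 8, the best 2.30-fold. CREBBP and EP300, acetyltransferase coactivators, passed with 1.83-fold and 1.58-fold, values within the range of the HIPK peaks themselves.

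**Figure D5:**
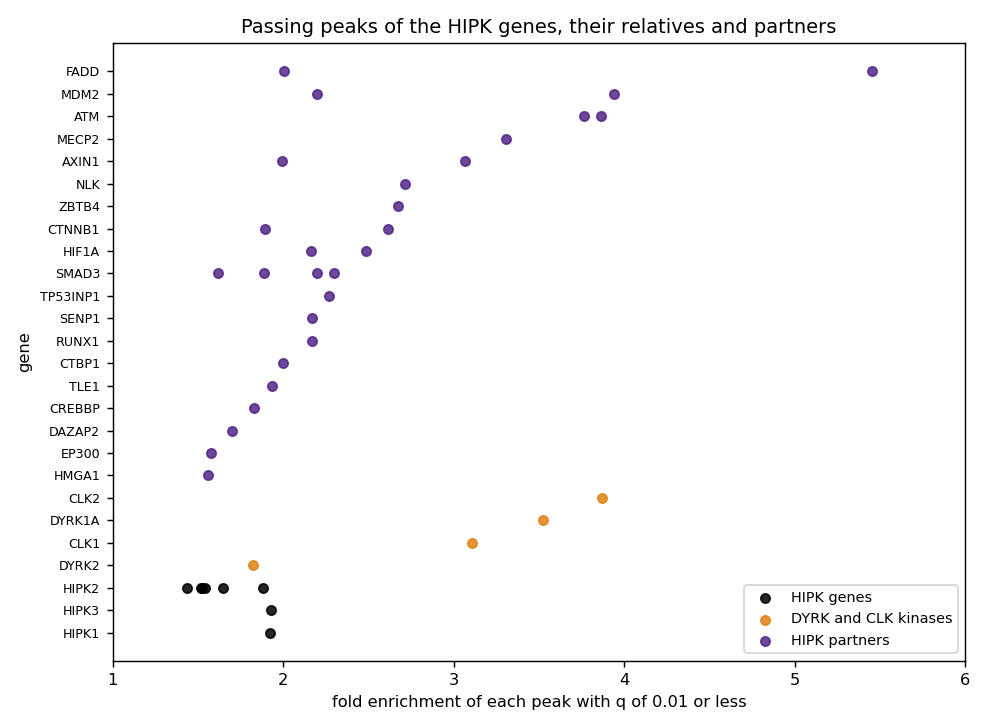
Fold enrichment of every passing peak (horizontal axis) by gene, for the HIPK genes (black), the DYRK and CLK kinases (orange) and those HIPK partners that are reported here (purple). The 8 HIPK peaks lie between 1.44 and 1.93, and the partners reach 5.45 in FADD.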

How the data were processed

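The deposited table is 1 peak list of YTHDF2 RIP over input. The submitters' processing notes name HISAT2, MACS2 and hg38. Versions, options and how libraries were combined were not given in the sources used here. Per the file headers it holds a fold enrichment (a ratio), −log10 p, −log10 q, a score, width and summit offset. The deposited score, the −log10 p times 10 without decimals, was not used. Nothing says whether replicates were separate cultures.

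A peak of k fragments has a fold of (k + 1) / (background + 1) and a Poisson upper-tail p beyond k at that background. Solving for a whole k (Python 3.11.15, scipy 1.17.1) met each −log10 p within 0.000189. On 1969 peaks simulated with the same formula it recovered 100%. That checks the solving alone, not whether the caller used this formula. The background divided by 0.68 gave input fragments where whole within 0.01. Scaled ratios of fragments have exact Clopper-Pearson intervals.

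Gene spans, start sites and names are RefSeq's (GRCh38.p14). All 44 partner and 10 kinase names matched, PRPF4B through a synonym. A peak on an alternative contig kept its deposited gene unless its exon or intron annotation named one.

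The members and lists were chosen with earlier results of these data known. Named genes were the HIPK genes, up to 5 members of each list with the highest passing fold and up to 3 with the most passing peaks, and the 2 nearest genes to each HIPK gene, with some genes not reported here. CREBBP, EP300, SIAH1, SIAH2, WSB1, ATR, CHEK1, MDM4, DYRK3, ELK4 and HDAC9 were named outside that rule, after their values were seen, as was RAB3B among genes with many 3' UTR peaks. Alternatives changed the gene given to a peak, the q threshold, the fragments, the feature classes and the joining of peaks.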

Additional observations from a re-analysis of the deposited data

How the results depend on the processing

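The family's count of 14 peaks became 6 with the deposited gene and 8 with only peaks of q of 0.01 or less, and 13 when peaks under 350 bp apart were joined. It stayed at 14 with any overlap with the gene span. The 8 passing peaks became 2 with the deposited gene, 10 at a q of 0.05 or less and 1 at a −log10 q of at least 5. Of HIPK peaks, the 3' UTR share of 57.1% became 0% with the deposited gene, which by construction names CLEC2L and KIAA1549L for those peaks. It was 75% among passing peaks and 72.7% among peaks with 10 or more fragments. The 11 peaks of HIPK2 became 4 with the deposited gene, and the median fold of HIPK2 moved from 1.54 to 2.17 there, since the intron peaks then outnumber the exon peak. Members of the DYRK and CLK list with a passing peak went from 4 to 1 at a −log10 q of at least 5, and were 5 with the deposited gene. The partners ranged from 15 to 24 around 22. Of the values for single HIPK genes under these settings, 34 stayed within their counting interval or, for counts, close to the main count, and 11 did not. Many of the 34 are values of HIPK1, whose only peak passed and which most settings could not change. Of the values for the family and the lists, 10 were counted as staying and 6 as moved. No paired analysis was possible because the list holds no value per library, and for the same reason no library could be left out. The depth of the libraries is unknown. The printed intervals of the folds of 1.24 to 1.93 cover the counting error of the RIP fragments alone. Neither the input's counting error nor spread between cultures is covered by them.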
